A study of Mus musculus with 38 samples.

Results

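Rorb-high middle-layer excitatory neurons of the mouse cortex were examined in nuclei from 4 animals, 2 with both Trim28 alleles excised (KO) and 2 controls with 1 allele excised. A nucleus was a member when its unique molecular identifiers (UMIs, 1 for each captured RNA molecule) met the following sums. Slc17a7 and Neurod6 together had at least 3 UMIs and more than Gad1 and Gad2 together. Rorb had at least 5 UMIs. Otof and Ccbe1 together had at most 2, Foxp2, Syt6 and Cpa6 together had fewer than 6, and Chst8, Trpc7 and Npr3 together had fewer than 3. Of 14296 nuclei, 5058 were excitatory by these sums and 1250 were Rorb-high, with 315 in KO animal 60, 379 in KO animal 73, 279 in control animal 64 and 277 in control animal 65.

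The series holds 38 samples, and its 4 libraries of single nuclei are the ones used here, next to bulk RNA-seq of the cortex from 3 KO and 3 control animals. By the labels, every animal carried Emx1-Cre (+/-) and was 3 months old, and the sires also carried gtRosa (+/-), which was not stated for each animal. The KO animals were Trim28-fl (+/+) and the controls Trim28-fl (+/-), so the controls had the same Cre and had lost 1 copy of Trim28. A legend in the study instead names Cre-negative littermates as controls for TEs in the bulk cortex, and the labels were followed here. Cortical nuclei were sorted by flow cytometry and profiled from the 3′ end of the transcript on the 10x Genomics platform. Emx1 drives Cre in progenitors of the dorsal telencephalon, which give rise to cortical excitatory neurons and to part of the glia, whereas GABAergic interneurons come from elsewhere and keep their floxed alleles. Each animal gave 1 library, so a genotype effect was read from 2 animals against 2.

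Trim28 is a corepressor that is brought to DNA by KRAB zinc finger proteins and that recruits machinery for the repressive histone mark H3K9me3, above all over transposable elements (TEs). Rorb encodes a nuclear receptor that is high in the middle layers of the cortex. Neurons of layer 4 receive the input from the thalamus and pass it on within the cortex.

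Markers that the rule did not use were present in the members. Slc17a7, the vesicular glutamate transporter, had a UMI in 99.0, 99.5, 99.6 and 99.3% of the Rorb-high nuclei of animals 60, 73, 64 and 65, but it belongs to the rule. Scube1, a secreted epidermal growth factor-like protein, was detected in 68.6, 72.3, 81.0 and 84.8% of the nuclei in the same order, against 47.5 to 55.6% of the other excitatory nuclei and 11.4 to 16.2% of the interneurons of these animals. Rspo1, a secreted enhancer of Wnt signalling, was detected in 26.7, 31.4, 38.4 and 31.8%, against 6.13 to 8.92% of the other excitatory nuclei and 1.18 to 2.77% of interneurons. The interneuron shares can hold free RNA as well as RNA of the interneurons themselves, which were not told apart. Median depths were 8695 to 9799 UMIs per interneuron and 10527 to 13028 per Rorb-high nucleus. Brinp3 was detected in 94.6 to 98.4% and Cux2, a transcription factor of layers 2 to 4, in 73.6 to 78.7% of Rorb-high nuclei, and Cux2 in 87.7 to 98.0% of upper-layer nuclei. Fezf2, which specifies subcerebral projection neurons, was detected in 6.03 to 9.39%, and Gad1, which makes GABA, in 3.43 to 4.76%. Scnn1a, a channel subunit used as a layer 4 marker, stayed rare, with a UMI in 2.54 and 2.11% of KO and 11.1 and 9.39% of control nuclei, against 0.340 to 1.26% of the other excitatory nuclei. Deptor, a marker of layer 5, had a UMI in 29.2 to 34.8% of the nuclei, and in 18.9 to 29.6% of the other excitatory nuclei and 27.4 to 32.9% of interneurons. Scube1 and Rspo1 were thus detected in a larger share of Rorb-high than of other excitatory nuclei in each animal, whereas Cux2 and Deptor do not set the class apart.

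Nuclei just outside and just inside the threshold are given as a description. There were 116 nuclei with 4 Rorb UMIs that met every other sum and 88 with 5. Scube1 was detected in 62.9% of the former and 64.8% of the latter, Rspo1 in 21.6 and 23.9%, and Cux2 in 62.9 and 70.5%.

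Rorb chose the members, so its level is a description only. The median number of Rorb UMIs in a member was 10 and 11 in KO animals 60 and 73, and 14 and 16 in control animals 64 and 65. Summed over the class of each animal, Rorb stood at 948 and 1074 CPM in KO and at 1379 and 1369 CPM in control. CPM here are the UMIs of a gene scaled to the same total of UMIs for every class and animal, with TMM factors.

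The members made up a smaller part of the excitatory nuclei in the KO animals, but 2 against 2 animals cannot test this. The share was 21.1% (95% exact binomial interval 19 to 23.2) in KO animal 60 and 24.4% (22.2 to 26.6) in KO animal 73. In the controls it was 27.5% (24.8 to 30.4) in animal 64 and 27.9% (25.1 to 30.8) in animal 65. The intervals cover counting error only. The mean share was 22.7% ± 2.33 (SD, n = 2) in KO and 27.7% ± 0.250 (SD, n = 2) in control, a difference of -5.01 percentage points (two-sided exact permutation p = 0.333, the smallest that this design allows). The rule counts Rorb UMIs, and the Rorb-high nuclei of the KO animals were shallower. With every excitatory nucleus thinned to 11227 UMIs and shallower ones left out, the shares were 14.5 and 15.9% in KO and 22.3 and 27.5% in control, a difference of -9.69 points. Thinning left out 662 and 777 excitatory nuclei of the KO animals and 353 and 384 of the controls. Fewer members and less Rorb RNA in each member cannot be told apart by this rule.

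**Figure D1:**
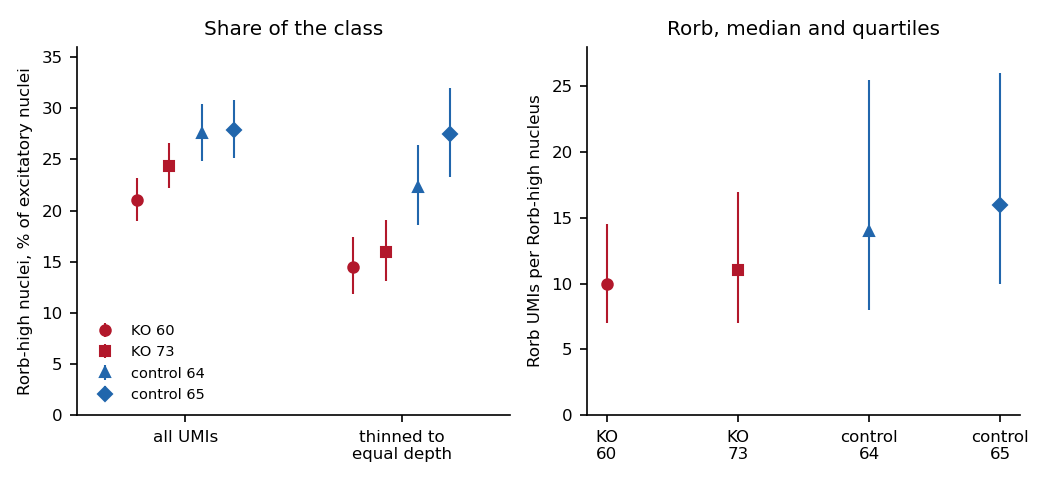
Left, Rorb-high nuclei as a percentage of excitatory nuclei in each animal, with 95% exact binomial intervals, for all UMIs and after thinning to equal depth; right, Rorb UMIs per Rorb-high nucleus as the median with quartiles. The KO animals (red) lie at 21.1 and 24.4% and the controls (blue) at 27.5 and 27.9% before thinning, and the medians of Rorb are 10 and 11 in KO and 14 and 16 in control.

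Rorb-high nuclei held 3711450 and 4590242 UMIs in KO animals 60 and 73 and 3990164 and 4054858 in control animals 64 and 65. The median member had 10806 and 10527 UMIs in KO and 12843 and 13028 in control. Genes longer than 100000 bases gave 50.5 and 50.6% of the UMIs in KO and 54.5 and 56.8% in control, and transcripts of the mitochondrial genome gave 0.123 and 0.0810% against 0.0415 and 0.0657%. In interneurons long genes gave 48.2 and 47.4% against 51.1 and 54.9%. Mitochondrial transcripts gave 0.296 and 0.156% against 0.116 and 0.164% there, so KO animal 73 lay between the controls. Their part in the results below was not tested. Pairs of libraries shared 0 to 20 cell barcodes, and no Rorb-high nuclei shared any.

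Trim28 itself did not separate the groups in these nuclei. It was found with 27 and 34 UMIs in KO and 38 and 29 UMIs in control, that is at 7.07 and 7.38 CPM against 9.76 and 7.33 CPM. The log2 fold change was -0.24 ± 0.29 (SE), with an edgeR adjusted p = 0.652, and the groups overlapped. The exons between the loxP sites were not given in the sources used here. If the 3′ end is not among them, these UMIs do not check the deletion. In bulk cortex of the same genotypes, read over the whole transcript, Trim28 fell by 1.39 on the log2 scale (edgeR adjusted p = 3.78e-04).

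Loss of Trim28 went with changes in both directions in Rorb-high nuclei. UMIs were summed for each animal and compared by edgeR's quasi-likelihood test, and a gene was called at a Benjamini-Hochberg adjusted p under 0.05. Of 12344 genes tested, 528 were higher in KO, which is 4.28%, and 552 were lower, which is 4.47%, together 8.75%. Of these, 162 rose and 123 fell by more than 1 on the log2 scale, 1.31% and 0.996% of the genes tested. Without TMM scaling the split was 725 higher and 426 lower, and the median of all genes moved from 0.00 to 0.06. Without control animal 64 the test called 2610 genes, without control animal 65 it called 1662, and without KO animal 73 it called 604. With nuclei thinned to equal depth it called 300, and without the filter on low counts 441. DESeq2 called 458, and it gave no adjusted p for 171 of the 1080 genes.

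**Figure D2:**
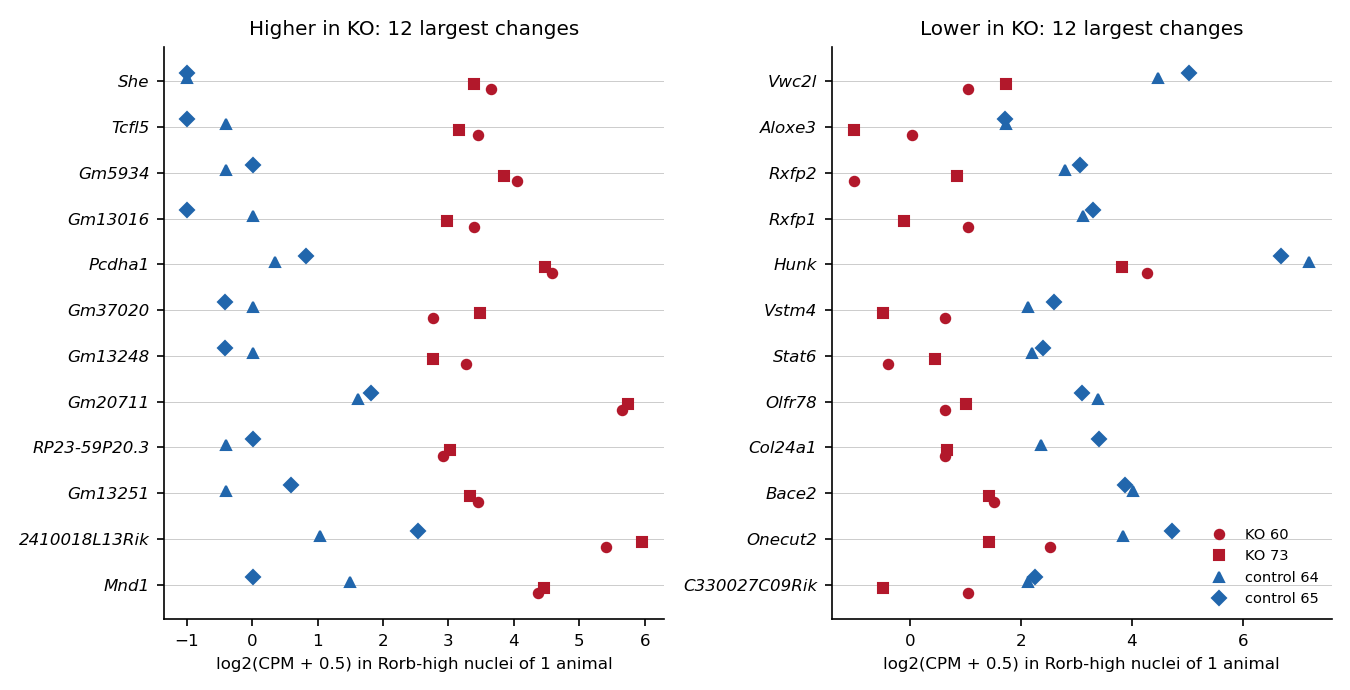
Level of the 12 genes with the largest increase (left) and the 12 with the largest decrease (right) in Rorb-high nuclei, as log2(CPM + 0.5), with 1 point per animal (red KO, blue control). Both KO animals lie on the same side of both controls for every gene shown, since that was a condition for naming it, and She is at 0 in both controls.

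Ranked by fold change, the largest increases were in genes with few UMIs in the control nuclei. Genes such as She and Tcfl5 passed the filter on low counts through the KO animals. Their low level in controls thus follows in part from the filter and the ranking. She, an adaptor protein with an SH2 domain (chr3:89831370-89858834, GRCm38), had 46 UMIs in each KO animal and 0 in each control. Its level was 12.1 and 9.98 CPM, at least 14.4-fold higher in KO when each control is set to a floor of 3 UMIs (edgeR adjusted p = 5.80e-04). These UMIs came from few nuclei, 17 of 315 in animal 60 and 11 of 379 in animal 73, and the richest nucleus had 9. Tcfl5, a transcription factor of spermatogenesis (chr2:180621956-180642708), had 40 and 39 UMIs in KO and 1 and 0 in control, a ratio of 73.6 (95% exact counting interval 12.8 to 2943). This interval pools the animals of a group and covers counting error only, not the spread between animals. Tcfl5 was spread over 34 and 37 nuclei, 10.8 and 9.76% of the class. The transcript of Tcfl5 was thus found in more nuclei than that of She, at similar totals.

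Other genes of the germline were described with Tcfl5 as a list chosen after their values were seen. Of 35 such genes in the annotation, 11 were tested, 4 were higher and none was lower, 36.4% beside 4.28% of all genes higher, with a median log2 fold change of 0.19 beside 0.00 for all genes. Tcfl5, Mnd1 and Rnf17 had 0 to 9 UMIs in a control and passed the filter on low counts through the KO animals, so this share says little about the list. Mnd1, which acts in meiotic recombination (chr3:84087933-84155786), stood at 20.2 and 21.5 CPM in KO and at 2.31 and 0.506 CPM in control, a log2 fold change of 3.87 ± 0.39 (edgeR adjusted p = 4.58e-04). Rnf17, a component of germ cell granules, was found at 4.72 and 15.0 CPM in KO and at 1.03 and 0.506 CPM in control (log2 fold change 3.67, edgeR adjusted p = 8.96e-03), and without KO animal 73 its adjusted p was 0.0529. Brdt, a bromodomain protein of the testis, was already present in controls, at 66.5 and 71.0 CPM, and stood at 94.3 and 95.9 CPM in KO. Its rise of 0.47 (edgeR adjusted p = 0.0283) was lost with DESeq2 and without KO animal 60 or 73 (adjusted p = 0.127 and 0.186), and with nuclei thinned to equal depth (adjusted p = 0.540). DESeq2 gave an adjusted p for 3 of the 11 genes and called none. The other 7, among them Dazl, Ddx4, Sycp2, Sycp3 and Dmc1, were not called, with log2 fold changes from -0.38 to 0.30.

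Of the 12 largest increases, 2410018L13Rik was found in the most nuclei (chr12:22953997-23010284). Its UMIs numbered 160 and 283 in KO and 6 and 21 in control, at 41.9 and 61.4 CPM against 1.54 and 5.31 CPM (log2 fold change 3.91 ± 0.34, edgeR adjusted p = 1.86e-04). It was detected in 34.6 and 48.3% of the Rorb-high nuclei of the KO animals, 2.15 and 7.22% of those of the controls, and 2.22 to 6.07% of interneurons of any animal. Gm20711, a transcript of chr1:168004139-168122465, rose from 2.57 and 3.03 CPM to 50.04 and 53.0 CPM (log2 fold change 4.19 ± 0.22, edgeR adjusted p = 5.64e-06). In contrast to 2410018L13Rik it was concentrated in few nuclei, 8.57 and 13.5% of the class in KO, with up to 21 UMIs in a nucleus.

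The promoters of these genes are shown for their CG dinucleotides, the substrate of DNA methylation, whose number differed among them. RefSeq windows on GRCm38.p6, from 250 bases before to 50 bases after a gene's start, were available for 5 of the 12 largest increases and 6 of the 12 largest decreases. The sequences run 5′ to 3′ on the strand of the gene, with CG dinucleotides in capitals.
She, chr3:89831120-89831419, plus strand: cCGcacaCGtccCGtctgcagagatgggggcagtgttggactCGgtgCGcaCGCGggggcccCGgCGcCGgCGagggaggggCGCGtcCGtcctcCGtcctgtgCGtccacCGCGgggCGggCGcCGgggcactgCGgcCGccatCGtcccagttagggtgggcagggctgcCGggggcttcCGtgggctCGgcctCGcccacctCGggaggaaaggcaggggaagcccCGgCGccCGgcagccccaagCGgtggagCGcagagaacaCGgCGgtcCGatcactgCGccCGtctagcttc
Tcfl5, chr2:180642642-180642941, minus strand: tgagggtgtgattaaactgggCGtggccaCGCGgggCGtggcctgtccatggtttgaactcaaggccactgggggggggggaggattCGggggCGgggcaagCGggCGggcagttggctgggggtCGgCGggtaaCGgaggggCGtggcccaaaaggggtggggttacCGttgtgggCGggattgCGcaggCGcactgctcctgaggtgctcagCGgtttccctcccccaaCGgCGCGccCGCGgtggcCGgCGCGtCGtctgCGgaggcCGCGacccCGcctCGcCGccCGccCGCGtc
2410018L13Rik, chr12:23010194-23010493, minus strand: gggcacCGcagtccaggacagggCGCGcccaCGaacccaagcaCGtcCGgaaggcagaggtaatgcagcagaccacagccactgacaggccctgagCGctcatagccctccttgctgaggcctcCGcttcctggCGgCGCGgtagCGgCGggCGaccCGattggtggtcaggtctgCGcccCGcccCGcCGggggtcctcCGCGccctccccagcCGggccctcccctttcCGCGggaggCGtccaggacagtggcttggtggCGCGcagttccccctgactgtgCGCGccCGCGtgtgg
Mnd1, chr3:84155737-84156036, minus strand: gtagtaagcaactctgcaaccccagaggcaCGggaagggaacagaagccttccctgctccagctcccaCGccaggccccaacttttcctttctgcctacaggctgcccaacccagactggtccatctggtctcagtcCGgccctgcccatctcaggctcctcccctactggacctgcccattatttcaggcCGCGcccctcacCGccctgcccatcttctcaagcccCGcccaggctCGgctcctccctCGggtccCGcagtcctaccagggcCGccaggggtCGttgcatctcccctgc
Hunk, chr16:90386147-90386446, plus strand: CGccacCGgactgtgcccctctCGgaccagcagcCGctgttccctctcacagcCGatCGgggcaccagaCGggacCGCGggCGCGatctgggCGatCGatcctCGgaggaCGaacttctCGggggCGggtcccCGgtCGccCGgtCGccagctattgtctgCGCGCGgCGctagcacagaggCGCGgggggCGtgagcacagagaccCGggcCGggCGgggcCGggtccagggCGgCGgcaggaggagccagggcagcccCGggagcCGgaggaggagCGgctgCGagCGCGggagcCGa
The windows of She, Tcfl5 and 2410018L13Rik held 39, 35 and 31 CG dinucleotides, and those of Mnd1 and Gm13016 held 12 and 9, so the median of the 5 was 31. The median was 7 over all 27025 promoters of the table and 21 over the tested genes, 22 over those higher and 21 over those lower. Hunk, a gene that fell and is described below, held 41, and the other 5 windows of the largest decreases held 6 to 12, so the median of the 6 was 7.5. The motif TGCCGC, searched on both strands, was in 23.7% of the promoters of genes that were higher, 21.9% of those lower and 20.2% of those tested.

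Several increased transcripts come from multigene loci, where reads that fit several near-identical copies are not counted. On chromosome 4, 13 tested genes started between 146 and 148 Mb, in a cluster of zinc finger genes. Of these, 8 were higher in KO, 61.5% beside 4.28% of all genes. The spans of these 8 overlap, since Gm26573 covers Gm13251, Gm13247 and Gm13248, and C230088H06Rik covers Gm13139 and Gm26624. The 8 may thus not be separate units. Of 1204 bins of 2 Mb with a tested gene, 37 held 3 or more increased genes. This bin is named because it held the most, so its share is a description and no test. Gm13251, Gm13247, Gm13248 and Gm13139 stood at 0.253 to 2.06 CPM in the controls. They passed the filter on low counts through the KO animals. Gm26624 (chr4:147136278-147457019) stood at 116 and 93.8 CPM in KO and at 22.6 and 25.5 CPM in control (log2 fold change 2.12 ± 0.15, edgeR adjusted p = 6.34e-05). Gm13251 stood at 10.5 and 9.55 CPM against 0.257 and 1.01 CPM, and Gm13248 had 35 and 29 UMIs in KO against 2 and 1 in control, a ratio of 19.9 (95% exact counting interval 6.5 to 98.9). That interval, too, covers counting error only. The neighbours Miip and Mfn2, at the same end of the bin, had log2 fold changes of -0.01 and -0.17 and were not called. Of 270 zinc finger genes named Zfp that were tested, 8 were higher and 2 lower, 2.96% and 0.741%, below the 4.28% and 4.47% of all genes, with a median of 0.03. Zfp820, one of the former, stood at 5.50 and 4.34 CPM against 0.514 and 1.01 CPM (log2 fold change 2.63, edgeR adjusted p = 0.0121, and 0.0625 without KO animal 60).

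Pcdha1, a neuronal adhesion molecule, was the only one of 54 clustered protocadherins with any UMI. It had 90 and 100 UMIs in KO and 3 and 5 in control, at 23.6 and 21.7 CPM against 0.771 and 1.26 CPM (log2 fold change 4.43 ± 0.34, edgeR adjusted p = 7.76e-05). Genes of the alpha cluster share their last exons, so 3′ UMIs cannot tell the members apart, and reads that fit several genes are not counted. The value therefore holds only UMIs assigned to Pcdha1 and is no measure of the cluster. Other members at 0 may have had reads that were not counted. UMIs were found in 21.9 and 21.4% of KO and 1.08 and 1.44% of control nuclei.

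Some increased genes lie on TE copies that were also higher in bulk cortex. In that table, made from cortex that included these 4 animals, 388 of 14556 TE copies tested were higher in KO, 2.67%, and 37 were lower, 0.254%, together 2.92%, called where the adjusted p was under 0.05 and the change in either direction exceeded 0.5 (log2). A copy with a called increase lay within 17 of the 528 genes that were higher in Rorb-high nuclei (3.22%), 13 of the 162 that rose by more than 1 on the log2 scale (8.02%), 2 of 551 that were lower (0.363%), and 61 of 12322 tested genes with a position (0.495%). Within 50000 bases the shares were 7.20%, 13.6%, 1.45% and 2.56%. Mnd1 holds a copy of the retrovirus IAPEz-int of 6396 bases in an intron on the same strand, chr3:84142796-84149191, whose log2 fold change in bulk cortex was 7.61. The nuclear counts include introns, so UMIs from such a copy can be counted for the gene. The 3 copies in Gm13016 and 3 of the 4 in 2410018L13Rik lie in exons, where the TE and the gene can share reads. Pcdha1, Gm20711, Hoga1, Trib1, Bglap3 and 9830147E19Rik also held a copy in an exon, on either strand. A rise of such a gene can by itself raise the count of the copy. The shares above are therefore a description and do not test a link between genes and copies. She and Tcfl5 had no such copy within 1 Mb.

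Part of the activity-induced genes rose in KO, and the controls differed among themselves. These genes are switched on within minutes to hours by synaptic input. Of 17 tested, 10 were higher and none lower, with a median of 1.26, that is 58.8% higher against 4.28% of all genes. Both KO animals lay above both controls for 13 of 17, beside 28% of all genes, with 28.1% the other way round. Fos, a transcription factor, stood at 19.1 and 25.4 CPM in KO and at 1.03 and 8.85 CPM in control. Arc, which acts at synapses, stood at 78.1 and 93.5 CPM against 3.34 and 42.7 CPM. Egr1 stood at 66.0 and 84.4 CPM against 10.5 and 39.9 CPM. Control animal 64 was the lowest for each of the 3 genes, and control animal 65 lay between it and the KO animals. The log2 fold changes were 2.17 ± 0.47 for Fos, 1.89 ± 0.52 for Arc and 1.58 ± 0.36 for Egr1 (edgeR adjusted p = 0.0170, 0.0455 and 0.0215). Without control animal 64 the test called 11 of the genes, all higher, and without control animal 65 it called 14. Homer1, a postsynaptic scaffold with an activity-induced short form, stood at 544 and 558 CPM against 151 and 356 CPM (log2 fold change 1.12, edgeR adjusted p = 0.0249). DESeq2 gave an adjusted p for 9 of the 17 and called 1, Dusp6, a phosphatase of MAP kinases (adjusted p = 0.0337). Its adjusted p were 0.408 for Fos, 0.585 for Arc, 0.387 for Egr1, 0.109 for Junb and 0.338 for Homer1. With nuclei thinned to equal depth Fos and Egr1 were not called by edgeR (adjusted p = 0.192 and 0.135). The median of the list in interneurons of the same animals was 0.84.

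**Figure D3:**
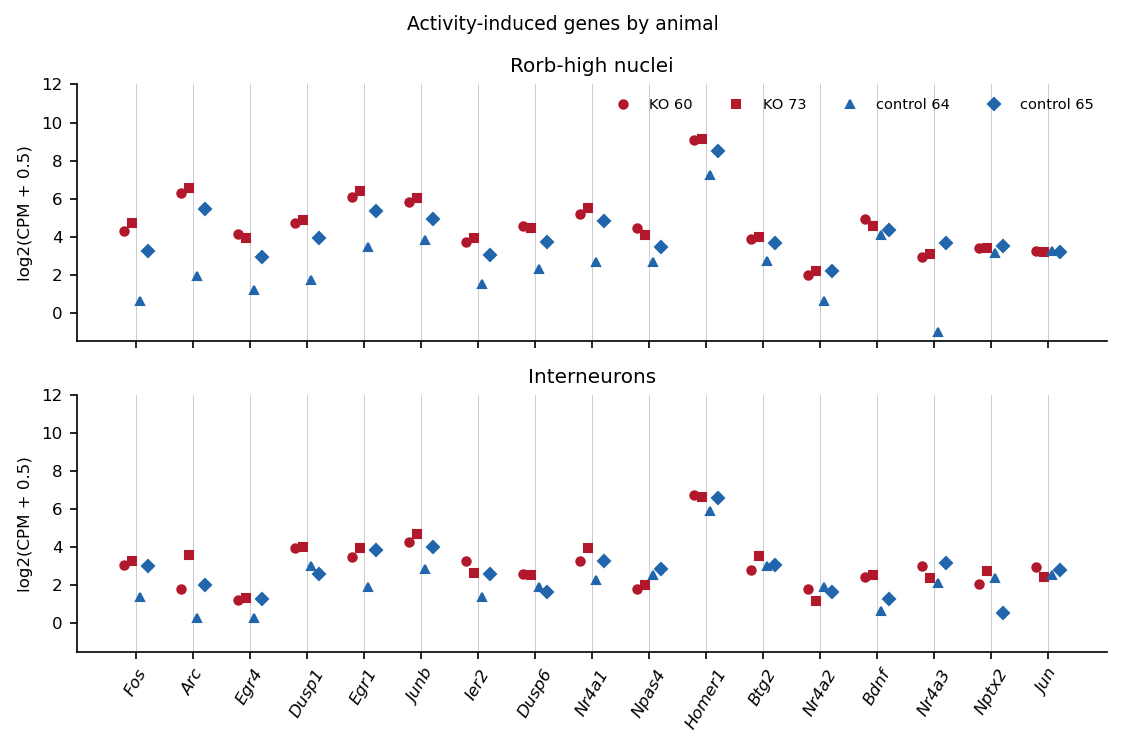
Activity-induced genes in Rorb-high nuclei (top) and interneurons (bottom), as log2(CPM + 0.5), with 1 point per animal, in the order of the log2 fold change in Rorb-high nuclei. Control animal 64 (triangles) is the lowest for most genes in both classes, for example for Arc with 3.34 CPM beside 42.7 CPM in control animal 65.

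Some ribosomal and mitochondrial transcripts rose, and these lists too were chosen after their values were seen. Of 72 tested genes of cytosolic ribosomal proteins, 9 were higher and none lower, 12.5% beside 4.28% of all genes higher, with a median of 0.54, and DESeq2 called 2. Rpl41 stood at 76 and 74.0 CPM in KO and at 48.3 and 43.2 CPM in control (log2 fold change 0.71, edgeR adjusted p = 7.40e-03). Of 11 tested transcripts of the mitochondrial genome, 6 were higher and none lower, 54.5%, with a median of 0.84, and DESeq2 called 2. mt-Cytb stood at 209 and 138 CPM against 67.1 and 99.4 CPM (log2 fold change 1.05, edgeR adjusted p = 0.0100, and 0.114 with DESeq2). In interneurons the medians of the lists were 0.48 and 0.63.

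Gene length moved with the direction of change. The median span of the 528 genes higher in KO was 13529 bases, against 130536 bases for those lower and 28491 bases for all tested. The shortest 3081 genes, up to 12175 bases, changed by 0.27 (log2) in the median, and the longest 3081, from 69776 bases, by -0.18. In interneurons of the same animals the medians were 0.29 and -0.15. The part of gene length in the changes described here was not tested.

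Hunk lost the most UMIs among the 12 largest decreases by fold. This gene encodes a serine/threonine kinase (chr16:90386013-90499553). It stood at 18.9 and 13.7 CPM in KO and at 146 and 102 CPM in control, a log2 fold change of -2.94 ± 0.20 (edgeR adjusted p = 6.19e-05). It was detected in 19 and 13.2% of KO and 74.6 and 67.5% of control Rorb-high nuclei, and in 52.0 to 60.4% of interneurons in all 4 animals. Hunk was thus found in a smaller share of KO members than of interneurons, and in a larger share of control members.

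Genes that few nuclei carried made up most of the other large decreases. Vwc2l, a secreted protein with a von Willebrand factor C domain (chr1:70725715-70885397), had 6 and 13 UMIs in KO and 84 and 128 in control, at 1.57 and 2.82 CPM against 21.6 and 32.4 CPM (log2 fold change -3.57 ± 0.34, edgeR adjusted p = 2.49e-04). It was detected in 1.59 and 1.06% of KO and 11.5 and 19.5% of control nuclei. Vwc2l also marks near-projecting neurons of layer 5. It was the 1 called of 3 tested markers of subcerebral and near-projecting neurons. All 8 markers of that list summed to 25.1 and 41.0 CPM in KO and 78.9 and 81.7 CPM in control. They include Chst8, Trpc7 and Npr3, which the rule limits. Nuclei with at least 3 UMIs over Vwc2l, Tshz2 and Slc17a8 numbered 4 and 6 in KO and 17 and 17 in control. Without them the log2 fold change of Vwc2l was -3.47 (edgeR adjusted p = 3.87e-03). Vwc2l itself is part of that sum, so its value after the removal is a description only. The part of near-projecting nuclei in its fall was not tested. Without these nuclei the test called 1014 genes, among them 484 of the 528 and 482 of the 552.

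Rxfp1 and Rxfp2, receptors of relaxin peptides, fell together. Rxfp1 had 6 and 2 UMIs in KO and 32 and 37 in control (log2 fold change -3.16, edgeR adjusted p = 3.40e-03). Rxfp2 had 0 and 6 UMIs in KO and 25 and 31 in control (log2 fold change -3.28, edgeR adjusted p = 9.85e-03). Both were rare, in 4.69 to 5.78% of control nuclei. Bace2, a relative of the beta-secretase, stood at 2.36 and 2.17 CPM against 15.7 and 14.2 CPM, and Onecut2, a homeobox transcription factor, at 5.24 and 2.17 CPM against 13.9 and 26.0 CPM (log2 fold changes -2.71 and -2.47, edgeR adjusted p = 8.40e-04 and 4.97e-03). Onecut2 was not called with nuclei thinned to equal depth (adjusted p = 0.0840), nor Rxfp1 with a Rorb minimum of 8 UMIs (log2 fold change -1.90, adjusted p = 0.0977). Col24a1 and Olfr78, a collagen and an olfactory receptor, fell by 2.75 and by 2.77 on the log2 scale (edgeR adjusted p = 0.0101 and 2.74e-03). Of the remaining genes among the 12 largest decreases, Aloxe3, Vstm4 and C330027C09Rik lost the call without KO animal 73 (adjusted p = 0.271, 0.125 and 0.419), C330027C09Rik also without control animal 65 (adjusted p = 0.0621), and Stat6 without KO animal 60 (adjusted p = 0.0808).

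Of the genes listed as markers of the middle layers, Tox, Scnn1a, Kcnh5 and Cux1 fell. Of 11 tested, 4 were lower and none higher, 36.4% beside 4.47% of all genes, with a median of -0.36, and -0.18 in interneurons. Tox, a chromatin protein, stood at 55.0 and 68.6 CPM in KO and at 177 and 160 CPM in control (log2 fold change -1.44 ± 0.13, edgeR adjusted p = 1.97e-04). It does not mark the class here, being detected in 18.2 to 41.9% of Rorb-high, 30.1 to 63.4% of other excitatory and 54.1 to 84.7% of layer 6 nuclei, and its log2 fold change in upper-layer nuclei was -1.69. Scnn1a stood at 2.10 and 2.39 CPM against 8.73 and 8.09 CPM (log2 fold change -1.89, edgeR adjusted p = 9.72e-03). Kcnh5, a potassium channel, and Cux1, a transcription factor of layers 2 to 4, fell by 0.45 and by 0.50 (edgeR adjusted p = 0.0176 and 0.0214), and without KO animal 73 their adjusted p were 0.169 and 0.0853. Kcnh5 was not called with thinned nuclei either (adjusted p = 0.171). Rspo1, at 30.9 and 39.3 CPM against 46.5 and 37.7 CPM, and Scube1, at 139 and 163 CPM against 168 and 221 CPM, were not called (edgeR adjusted p = 0.377 and 0.124). In bulk cortex Scnn1a and Rspo1 had log2 fold changes of -1.33 and -1.14 (edgeR adjusted p = 0.0273 and 0.0165).

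Markers of other layers moved in both directions. None of 7 tested layer 5 markers was called by edgeR in either direction, with a median of -0.13, and 2 had an unadjusted p under 0.05. DESeq2 called none. Of 6 upper-layer markers 1 was higher, Lamp5, at 84.9 and 90.9 CPM against 46.5 and 33.6 CPM (log2 fold change 1.14, edgeR adjusted p = 1.97e-03). Of 2 tested markers of layer 6, Tle4 was lower (log2 fold change -0.57, edgeR adjusted p = 0.0269, and 0.117 with DESeq2), with adjusted p = 0.0647 and 0.207 without KO animals 60 and 73, and 0.183 with thinned nuclei. Of 6 markers of cortical excitatory neurons 1 was higher, Nrgn, a calmodulin-binding protein of dendrites, at 518 and 489 CPM against 329 and 280.4 CPM (log2 fold change 0.72, edgeR adjusted p = 2.52e-03).

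**Figure D4:**
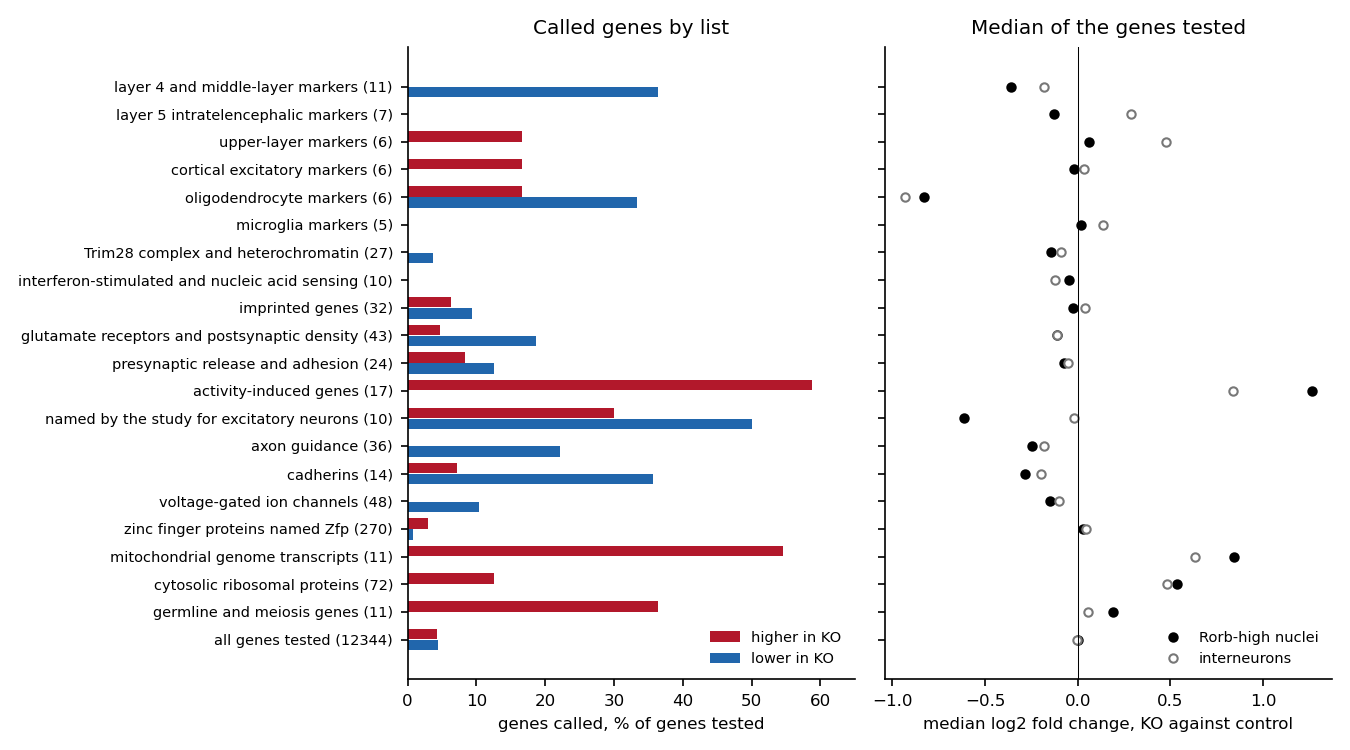
Gene lists with at least 5 tested genes in Rorb-high nuclei, with the number tested in parentheses: left, the percentage called higher (red) or lower (blue) in KO; right, the median log2 fold change in Rorb-high nuclei (filled) and interneurons (open). All genes stand at 4.28% higher and 4.47% lower, activity-induced genes at a median of 1.26 and the middle-layer markers at -0.36.

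Several receptors for glutamate fell. Of 43 tested genes of glutamate receptors and the postsynaptic density, 8 were lower and 2 higher, 18.6% and 4.65% beside 4.47% and 4.28% of all genes. The median was -0.11 both here and in interneurons. All 8 of the former encode receptors. Grm8, a presynaptic metabotropic receptor, stood at 76.8 and 45.1 CPM in KO and at 212 and 150.2 CPM in control (log2 fold change -1.58 ± 0.22, edgeR adjusted p = 2.00e-03). Grik3, a kainate receptor subunit, stood at 34.3 and 31.0 CPM against 66.8 and 76.9 CPM (log2 fold change -1.14 ± 0.14, edgeR adjusted p = 1.19e-03). Gria4, Gria3, Grm3, Grm7 and Grin1 fell by 0.42, 0.41, 0.54, 0.36 and 0.32 on the log2 scale, and Gria4 was not called with thinned nuclei (adjusted p = 0.0879). The 2 that rose were Homer1 and Cacng2, an auxiliary subunit that carries AMPA receptors to the synapse, at 161 and 196 CPM against 93.8 and 128 CPM (log2 fold change 0.69, edgeR adjusted p = 0.0170).

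Guidance and adhesion molecules were mostly lower where called. Of 36 tested axon guidance genes, 8 were lower and none higher, 22.2% beside 4.47% of all genes lower, with a median of -0.25, and -0.18 in interneurons. Sema6a, a transmembrane semaphorin, stood at 23.6 and 30.6 CPM against 49.3 and 57.4 CPM, and Ntn4, a netrin, at 14.7 and 11.3 CPM against 25.7 and 29.8 CPM (log2 fold changes -0.97 and -1.11, edgeR adjusted p = 5.87e-03 and 7.95e-03). Slit2, Slit3, Unc5c, Sema6d, Plxna4 and Epha6 fell by 0.36 to 0.64. Of 14 cadherins, 5 were lower and 1 higher, 35.7% and 7.14%, with medians of -0.29 and, in interneurons, -0.20. Cdh18 stood at 144 and 132 CPM against 376 and 297 CPM (log2 fold change -1.28 ± 0.12, edgeR adjusted p = 2.88e-04), and Cdh7, Cdh11, Cdh8 and Cdh2 fell by 0.76, 0.56, 0.42 and 0.39. Cdh22 was the one that rose, by 0.60 (edgeR adjusted p = 0.0379, and 0.246 and 0.0550 without KO animals 60 and 73). Cdh8 and Sema6d were not called without KO animal 60 (adjusted p = 0.162 and 0.0720), and Epha6 neither without KO animal 60 nor without KO animal 73 (adjusted p = 0.169 and 0.119). With thinned nuclei Sema6a, Sema6d, Epha6, Cdh11, Cdh8 and Cdh22 were not called (adjusted p = 0.0821, 0.194, 0.199, 0.110, 0.0609 and 0.132).

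Among ion channels and the release machinery 8 genes fell and 2 rose. Of 48 tested voltage-gated channels, 5 were lower and none higher, 10.4% beside 4.47% of all genes lower, with a median of -0.15, and -0.10 in interneurons. Scn7a, a sodium channel, stood at 4.45 and 4.77 CPM against 13.9 and 20.2 CPM (log2 fold change -1.88, edgeR adjusted p = 3.65e-03), whereas Scn1a, Kcnc2, Kcnh5 and Kcnq5 fell by 0.35 to 0.56. With nuclei thinned to equal depth the change of Scn7a was -1.01 and was not called (adjusted p = 0.227), nor were Scn1a and Kcnc2 (adjusted p = 0.0609 and 0.108). Of 24 tested presynaptic genes, 3 were lower and 2 higher, 12.5% and 8.33% beside 4.47% and 4.28% of all genes. Their median was -0.07, and -0.06 in interneurons. Unc13c, a priming factor of synaptic vesicles, stood at 3.14 and 3.26 CPM against 13.6 and 13.4 CPM (log2 fold change -2.07 ± 0.29, edgeR adjusted p = 2.55e-03). Syt1, the calcium sensor of release, stood at 3016 and 3110 CPM against 3991 and 4712 CPM (log2 fold change -0.51, edgeR adjusted p = 8.07e-03). Vamp2 and Snap25, 2 SNARE proteins, rose by 0.58 and by 0.35 (edgeR adjusted p = 0.0157 and 0.0275), and Vamp2 was not called without KO animal 60 or 73 (adjusted p = 0.0885 and 0.0602) or with thinned nuclei (adjusted p = 0.129).

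Atf7ip fell among the genes around Trim28. Of 27 tested genes of the Trim28 complex and heterochromatin, 1 was lower and none higher, 3.70%, near the 4.47% of all genes lower. It was Atf7ip, a partner of the H3K9 methyltransferase Setdb1, at 61.6 and 66.8 CPM against 96.1 and 95.1 CPM (log2 fold change -0.57 ± 0.12, edgeR adjusted p = 0.0128, and 0.104 without KO animal 60 and 0.357 with thinned nuclei). None of 10 tested interferon-stimulated and nucleic acid sensing genes was called by edgeR or DESeq2, of 31 in the annotation, and 3 had an unadjusted p under 0.05 with edgeR, with a median of -0.05 and a range from -1.41 to 0.83. Of 32 tested imprinted genes, 3 were lower and 2 higher, 9.38% and 6.25% beside 4.47% and 4.28% of all genes. The median was -0.02, and 0.04 in interneurons, and DESeq2 called 2. Sfmbt2, a Polycomb protein, stood at 2.62 and 3.69 CPM against 10.5 and 13.1 CPM (log2 fold change -1.88, edgeR adjusted p = 6.40e-03), and Nap1l5 stood at 131 and 127 CPM against 86.6 and 76.4 CPM (log2 fold change 0.67, edgeR adjusted p = 5.99e-03, and 0.0997 with thinned nuclei).

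Markers of other cell types were at low levels, and of those tested only oligodendrocyte markers had called members. The summed level of the interneuron markers was 50.6 to 78.9 CPM in Rorb-high nuclei, beside 5256 to 6124 CPM in interneurons, and 0 of 4 tested were called by edgeR. The sums were 30.1 to 37.5 CPM for astrocytes and 53.6 to 61.4 CPM for microglia, with 0 of 4 and 0 of 5 called. At an unadjusted p under 0.05 these were 1 interneuron, 2 astrocyte and 0 microglia markers, and DESeq2 called none. No marker of oligodendrocyte progenitors or vessels had enough UMIs for the test, and Cldn5 and Rgs5 were at 0 in all 4 animals. Oligodendrocyte markers summed to 99.3 and 76 CPM in KO and 112 and 87.0 CPM in control, so the sums overlapped. Of 6 tested, 1 was higher and 2 were lower, with a median of -0.83, and -0.93 in interneurons, and for 5 both KO animals lay on one side of both controls. Their part in the results was not tested. Mbp, whose locus also gives Golli transcripts in neurons, stood at 55.0 and 43.0 CPM against 26.2 and 30.1 CPM (log2 fold change 0.79, edgeR adjusted p = 0.0151, and 0.116 without KO animal 60). Mobp, a myelin gene, stood at 2.36 and 1.74 CPM against 8.99 and 4.55 CPM (log2 fold change -1.73, edgeR adjusted p = 0.0392), and without KO animal 73 or control animal 64 its adjusted p were 0.154 and 0.186, and without doublets 0.107. In interneurons Mbp stood at 14.3 and 14.4 CPM against 21.5 and 22.5 CPM.

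Interneurons of the same animals, which Emx1-Cre spares, served as the comparison within each library. They numbered 338, 361, 271 and 280. With edgeR, 0 of 12308 genes passed in them, and 1735 had an unadjusted p under 0.05. A call in one class and none in the other is not a difference, so the effect of genotype was compared between the classes in 1 model over the 8 sums. Of 13175 genes, 126 had a higher effect in Rorb-high nuclei (0.956%) and 63 a lower effect (0.478%), together 1.43%, and DESeq2 called 29. Among the genes called in Rorb-high nuclei alone, 88 higher and 59 lower also passed this test. The genes called higher in Rorb-high nuclei had medians of 0.84 there and 0.42 in interneurons (log2), and those called lower had -0.64 and -0.26, with the first value of each pair raised by the choice of the genes.

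**Figure D5:**
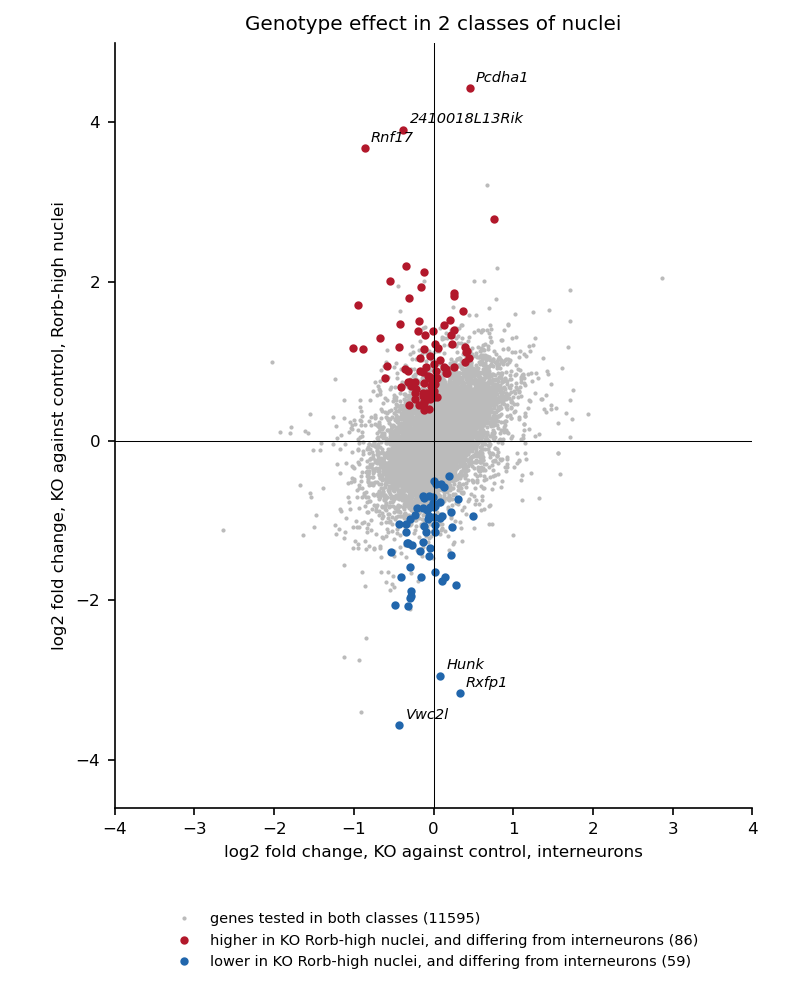
Log2 fold change of KO against control in interneurons (x) and Rorb-high nuclei (y), with 1 point for each of 11595 genes tested in both classes. Coloured genes were called in Rorb-high nuclei and in the test of the difference, for example Hunk at -2.94 in Rorb-high nuclei and 0.09 in interneurons.

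Named genes show the contrast in levels. 2410018L13Rik, which stood at 41.9 and 61.4 CPM in the KO members, stood at 5.49 and 2.36 CPM in the interneurons of those animals and at 2.87 and 7.16 CPM in control interneurons (difference of the log2 fold changes 4.30, edgeR adjusted p = 2.97e-04). Gm26624 stood at 20.4 and 18.8 CPM in KO and at 19.7 and 22.8 CPM in control interneurons (difference 2.27, edgeR adjusted p = 9.96e-06). Tox stood at 160 and 201 CPM against 148 and 226 CPM there (difference -1.37, edgeR adjusted p = 3.74e-04). Grm8, Cdh18, Grik3, Unc13c, Sema6a and Sfmbt2 also passed, with differences of -1.25, -0.92, -0.77, -1.71, -1.01 and -1.56. Among genes picked after their values were seen, Lama4, a laminin chain, fell by 1.98 in Rorb-high nuclei and stood at 18.6 and 17.1 CPM against 77.8 and 62.7 CPM. Htr2a, the serotonin receptor 2A, stood at 27.8 and 31.5 CPM against 67.3 and 80.2 CPM, with differences from interneurons of -1.65 for Lama4 and -1.01 for Htr2a (edgeR adjusted p = 4.56e-03 and 7.14e-03). Of the activity-induced genes, Homer1 and Npas4 passed (differences 0.80 and 2.08, edgeR adjusted p = 0.0115 and 0.0187), and Fos, Arc and Junb did not (adjusted p = 0.150, 0.960 and 0.428). None of the ribosomal or mitochondrial genes named above passed (differences 0.14 for Rpl41 and 0.31 for mt-Cytb, edgeR adjusted p = 0.824 and 0.412).

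Other excitatory classes, which share the 4 animals, are set beside the Rorb-high nuclei by their own values. Upper-layer nuclei, with more than 2 UMIs of Otof and Ccbe1, numbered 714 and had 145 genes higher and 175 lower of 11526 tested, 1.26% and 1.52%, together 2.78%. Layer 6 nuclei numbered 356, 75 and 37 of them in the KO animals, and had 34 and 29 of 9637, 0.353% and 0.301%. Upper-layer nuclei held 2024402 to 3758287 UMIs in an animal and layer 6 nuclei 424514 to 1585129. The numbers of calls are therefore not compared between classes. Of the genes called higher in Rorb-high nuclei, 502 of 513 also rose in upper-layer and 448 of 470 in layer 6 nuclei. Of those called lower, 500 of 526 and 420 of 471 fell. In interneurons the numbers were 413 of 495 and 463 of 520. Hunk had log2 fold changes of -3.01 in upper-layer and -2.33 in layer 6 nuclei, 2410018L13Rik 3.15 and 2.29, and Pcdha1 3.29 and 4.81. In the test of the difference against upper-layer nuclei, 26 genes had a higher and 12 a lower effect in Rorb-high nuclei, 0.202% and 0.0930% of 12902. Against layer 6 nuclei the numbers were 5 and 12, 0.0409% and 0.0981% of 12235. DESeq2 called 0 and 2 in these tests, and 985 and 840 genes had an unadjusted p under 0.05 with edgeR. Epha6, a receptor of ephrins, fell by 0.36 in Rorb-high and by 1.28 in upper-layer nuclei, with a difference of 0.94 (edgeR adjusted p = 1.13e-03, and 0.144 with DESeq2). Cdh10 had a log2 fold change of -0.05 in Rorb-high nuclei and -1.59 in layer 6 nuclei, with a difference of 1.59 (edgeR adjusted p = 3.47e-03, and 0.0320 with DESeq2).

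Genes that the study lists for excitatory neurons were chosen by it on these samples, so their direction is not independent evidence. Of 10, 3 were higher, 5 were lower and 2 were not called. Gm26835 stood at 402 and 403 CPM in KO and at 224 and 179 CPM in control (log2 fold change 1.00, edgeR adjusted p = 7.98e-04). Tmem132d, Hecw2, Sgcz, Cdh18 and Pak7 fell by 1.04, 0.84, 0.77, 1.28 and 0.77. Pde10a rose by 0.65 (edgeR adjusted p = 0.0431, and 0.365 with DESeq2). Meg3, a maternally expressed noncoding RNA, stood at 9195 and 9556 CPM against 8096 and 8708 CPM, and Hs3st4 at 384 and 442 CPM against 471 and 666 CPM (edgeR adjusted p = 0.232 and 0.0671).

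Bulk cortex was set beside the nuclei. It compares 3 KO with 3 control animals, of which 2 and 2 are the animals of the nuclei, so it is no independent test, and in whole tissue fewer cells of a type and less RNA per cell cannot be told apart. Of 16271 genes, 142 were higher there (0.873%) and 81 lower (0.498%), together 1.37%. Of the 528 genes higher in Rorb-high nuclei, 488 were tested in cortex, where 32 were higher and none lower. Of the 552 lower, 536 were tested, where 19 were lower and none higher. In the KO and control animals without nuclei, 76 and 77, the median log2 ratio of the higher genes was 0.16 and that of the lower genes -0.20, beside 0.01 for all genes, with 1 animal against 1 and no test. 2410018L13Rik, Mnd1, Tcfl5 and Pcdha1 had log2 fold changes of 4.08, 4.08, 4.29 and 3.55 in cortex (edgeR adjusted p = 2.12e-06, 2.75e-06, 2.75e-06 and 5.41e-05). She, by contrast, was not called there, at a log2 fold change of 0.18 (edgeR adjusted p = 0.941), and Hunk fell by 0.64 (edgeR adjusted p = 0.0244).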

How the data were processed

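Single-nucleus UMI counts and bulk cortex read counts were taken as deposited by the authors, with no normalization. Per the labels and the study's methods, nuclei were counted with Cell Ranger 3.0 on a pre-mRNA reference, which includes introns. Bulk reads were mapped uniquely to GRCm38.p6 with STAR 2.6.0 and counted by strand over genes and over single TE copies with featureCounts (Subread 1.6.3). The bulk gene and TE tables held 26 and 32 columns that were not used here. Of 55298 gene IDs of the bulk table, 54409 matched a symbol. The cortex libraries of the 6 animals held 16748967 to 25345083 counts in genes.

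UMIs were summed over the nuclei of a class in each animal, and genes kept by edgeR's filter on low counts were tested with edgeR 4.0.16 (quasi-likelihood, TMM) in R 4.3.3, with Benjamini-Hochberg adjustment. Genotype-by-class effects came from 1 model over the sums of both classes, with the animal as a block. Shares have exact Clopper-Pearson intervals. Alternatives were DESeq2 1.42.0, other size factors, no filter on low counts, other Rorb minimums, thinning, removal of doublets (scanpy 1.11.5, Python 3.11.15) and leaving out each animal. Doublets stayed in otherwise. The caller marked 0.369% of the nuclei of KO animal 60, too few to count as working there, and 1.24 to 1.86% elsewhere. Plots use a pseudocount of 0.5 CPM. The tests were checked on simulated data.

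Named genes were Trim28, the genes and markers of the rule, the study's list for excitatory neurons, the 12 largest called changes in each direction in which both KO animals lay on one side of both controls, up to 4 called members of each list with the smallest p, and up to 5 genes of each genotype-by-class test. Other named genes were chosen after their values were seen, as were the germline, ribosomal and mitochondrial lists and the removal of nuclei with near-projecting markers. The members and all lists were chosen with earlier results of these data known. Some members of the lists are counted but not reported here by name.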

Additional observations from a re-analysis of the deposited data

Results flagged for a closer look

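The effect of genotype differed between Rorb-high nuclei and the other classes of the same animals for a number of genes, by the test of the difference itself. Against upper-layer nuclei 38 genes differed by edgeR's adjusted p. The differences in log2 fold change, Rorb-high minus upper-layer, were 0.94 for Epha6, 0.83 for Flrt2, 0.62 for Fam19a1, 0.63 for Ptprk and -0.76 for Ndst3, and DESeq2 called none of the 5. Without KO animal 73, Fam19a1 and Ptprk were not called, at 0.51 and 0.54. Against layer 6 nuclei 17 genes differed. The differences were -3.73 for Rxfp1, -4.31 for Unc13c, 1.59 for Cdh10, -1.20 for Iqgap2 and 1.72 for Zfp608, and DESeq2 did not call Unc13c, Iqgap2 or Zfp608. Without KO animal 60, Unc13c and Zfp608 were not called, at -1.49 and 1.43.

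Against interneurons 189 genes differed. The differences were -3.11 for Vwc2l, -2.99 for Hunk, -1.80 for Thsd7b, 2.27 for Gm26624 and 1.6 for Gm13832. Thsd7b stood at 21.7 and 17.6 CPM in KO and at 55.0 and 73.1 CPM in control Rorb-high nuclei, and Gm13832 at 43.0 and 55.3 CPM against 16.2 and 21.7 CPM.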

How the results depend on the processing

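The number of genes called in Rorb-high nuclei, 1080, was 458 with DESeq2, 441 without the filter on low counts and 300 with nuclei thinned to equal depth. It was 1097 with RLE factors, 1151 without factors, 1293 and 904 with Rorb minimums of 3 and 8 UMIs, 1250 without doublets, and 604 to 2610 with 1 animal left out. Without factors 63.0% of the calls were higher, beside 48.9%. The 38 genes that differed from upper-layer nuclei were 0 with DESeq2, 100 without the filter and 17 to 128 with 1 animal left out. The 17 that differed from layer 6 nuclei were 2, 73 and 32 to 79, and 26 without doublets. The 189 that differed from interneurons were 29, 350 and 85 to 335. In whole cortex, 223 became 621 without the filter and 104 to 387 with 1 animal left out, and 425 TE copies became 979 at a minimum of 10 reads. The difference in the share of Rorb-high nuclei, -5.01 points, was -9.69 after thinning and -6.66 to -3.36 with 1 animal left out. Of 89 named genes with a test in Rorb-high nuclei, 40 stayed on their side of the threshold in every setting that gave them an adjusted p. Some settings gave none for part of the genes. With thinned nuclei 36 kept their side, 31 lost the call and 1 changed direction, and the others had no test there. Without the filter 25 lost the call, and with a Rorb minimum of 8 UMIs 3. With DESeq2 16 lost it, 43 kept their side and the others had no adjusted p. Trim28 turned from -0.24 to 0.25 on the log2 scale after thinning, with neither called. The cause of these shifts was not tested. With 1 animal left out, the lone animal of its group is assumed to vary like the others. No paired analysis was possible because KO and control animals carry different numbers.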
